A study of Mus musculus with 15 samples.

Results

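The R525H form of DDX41 was compared with wild-type DDX41, each delivered by retrovirus to the same line of mouse blood progenitors. Het R525H (3 libraries) and Het DDX41 (3 libraries) are 6 of the 15 libraries of the series, chosen by the vector named in their sample titles. Both groups have the genotype hi-Ddx41+/-, so every library compared comes from cells that lack 1 copy of mouse Ddx41. The cells are hematopoietic progenitors of fetal liver, immortalized with Hoxb8 and kept in medium with β-estradiol. They were exposed to virus for 2 days and then sorted for GFP. Het G173R (DDX41 with another substitution found in patients), Het empty (vector with no insert) and WT empty (the hi-Ddx41+/+ line with empty vector) have 3 libraries each and serve here only to place the values. Each genotype is represented by 1 line, and no source says whether the libraries of a group were grown as separate cultures. The p-values may therefore reflect technical spread alone. The names of the deposited files contradict the titles: those of Het R525H carry the code that the titles give to wild-type DDX41, and those of Het DDX41 carry a code that no title uses. Groups follow the titles, and every direction below rests on them.

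DDX41 is a DEAD-box helicase, an enzyme that uses ATP to remodel RNA. It joins the spliceosome at a late stage of splicing and has also been described as a sensor of DNA and cyclic dinucleotides in the cytosol. Inherited loss of one copy of human DDX41 predisposes to myeloid neoplasms, and R525H is the substitution most often acquired in the other copy; it lies in the helicase domain that binds ATP. The stretch of mouse Ddx41 that holds the codon of the residue named in R525H is shown with that codon in capitals. The vector carries its own DDX41 sequence, which is not shown and may differ from this stretch. The mouse stretch is the coding strand of transcript Ddx41-201 (GENCODE M21, GRCm38), joined across exons 14 and 15. The codon itself is in exon 15 of 17, on the minus strand at chr13:55531424-55531426.
Ddx41, the R525H codon with 15 codons on each side: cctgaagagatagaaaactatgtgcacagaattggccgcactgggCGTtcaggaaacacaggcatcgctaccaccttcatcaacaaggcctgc
The mouse codon, CGT, encodes arginine. Gene counts do not show a base change, so the identity of the vector could not be checked in these files.

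The libraries compared held 22104043 to 40527106 counts in Het R525H and 36766119 to 49145845 in Het DDX41. The smallest was Het R525H library 3. Mitochondrial transcripts took 2.28 to 2.91% of the counts, and 18073 to 19257 genes had a count. All 9 markers of hematopoietic progenitors were present, with a summed level of 1240 to 2000 TPM (a level scaled for gene length and library size) in Het R525H and 1320 to 1790 TPM in Het DDX41. Hepatocyte markers summed to 0.13 to 0.83 TPM in Het R525H and 0.1 to 0.87 TPM in Het DDX41, with Alb and Ttr at 0 in all 6 libraries. The T cell genes Cd3e and Cd8a and the stromal genes Col1a1 and Col3a1 were also at 0. In both groups library 3 stood apart from libraries 1 and 2. The deviations of the same-numbered libraries from their group means correlated across genes by 0.321, 0.337 and 0.635 for numbers 1, 2 and 3, while library 3 of either group correlated negatively with libraries 1 and 2 of the other (-0.4 to -0.473). The deviations of a group sum to 0 for each gene. The negative values therefore follow in part from the 0.635 and are not separate evidence. Libraries 1 and 2 correlated across the groups nearly as strongly when their numbers differed (0.308 and 0.259), so the numbers set library 3 apart but hardly separate 1 from 2. The comparison was set with the number as a term of the model (a block), so that a gene is judged by its differences within each number. That choice did not come from these correlations. What the number stands for, a day, a culture or a preparation, is not given.

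Ddx41 itself had 32.7, 34.6 and 29.1 CPM in Het R525H, against 34.5, 35.3 and 29.5 CPM in Het DDX41 (CPM are counts scaled to a common library total). The groups overlapped. Their means were 32.1 ± 2.81 CPM in Het R525H and 33.1 ± 3.11 CPM in Het DDX41 (SD, n = 3 each), a log2 difference of -0.04 with a 95% interval of -0.18 to 0.09. The means of Het G173R, Het empty and WT empty were 33.3, 30.3 and 59.3 CPM. In both groups the counts of Ddx41 stayed below those of the line with both copies. The files do not tell whether transcripts of the vector are counted under the mouse gene.

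Of 14548 genes tested, 59 passed the test (0.406%; edgeR quasi-likelihood test, Benjamini-Hochberg adjusted p under 0.05). Of these, 23 were higher in Het R525H (0.158% of the genes tested) and 36 were lower (0.247%). The changes were small: their log2 fold changes had sizes from 0.274 to 1.13, with a median of 0.421, and 41 of the 59 were under 0.5. Over all genes tested the median log2 fold change was 0.00482 and the quartiles were -0.11 and 0.108. In each of the 59 genes, all 3 same-numbered pairs differed in the direction of the call. The genes were selected on these same pairs, so this follows largely from the selection and is not separate evidence. The 3 libraries of the groups did not overlap for 44 of the 59, against 10.7% of all genes tested (5.16% higher and 5.51% lower in Het R525H); the calls come from the same contrast, so this share is only a description.

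The count of calls depended on the block and on every library. Without the block the same test called 0 genes, with 581 genes at an unadjusted p under 0.05 against 1550 with it, and the smallest adjusted p was 0.0974. Leaving out Het R525H library 1, 2 or 3 left 22, 21 or 13 calls, and leaving out Het DDX41 library 1, 2 or 3 left 15, 17 or 23. All 59 genes kept their sign in each of these fits, which reuse libraries on which they were selected, so this is only a description. Of the 59, 11 passed the test whichever library was left out, with adjusted p of 0.00328 to 0.0486: Dgat2, Sdc1, Ms4a3, Stk4, Ptprs, Pak2, Fam133b, Mtus1, Csgalnact2, Ifi209 and Tlr4. With libraries numbered 1 and 2 alone, all of these but Ifi209 passed. Another 27 passed in none of the 6 fits (adjusted p of 0.0544 to 0.282). In the text below, genes that lost the call in any of these 6 fits are given with their adjusted p in them.

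**Figure D1:**
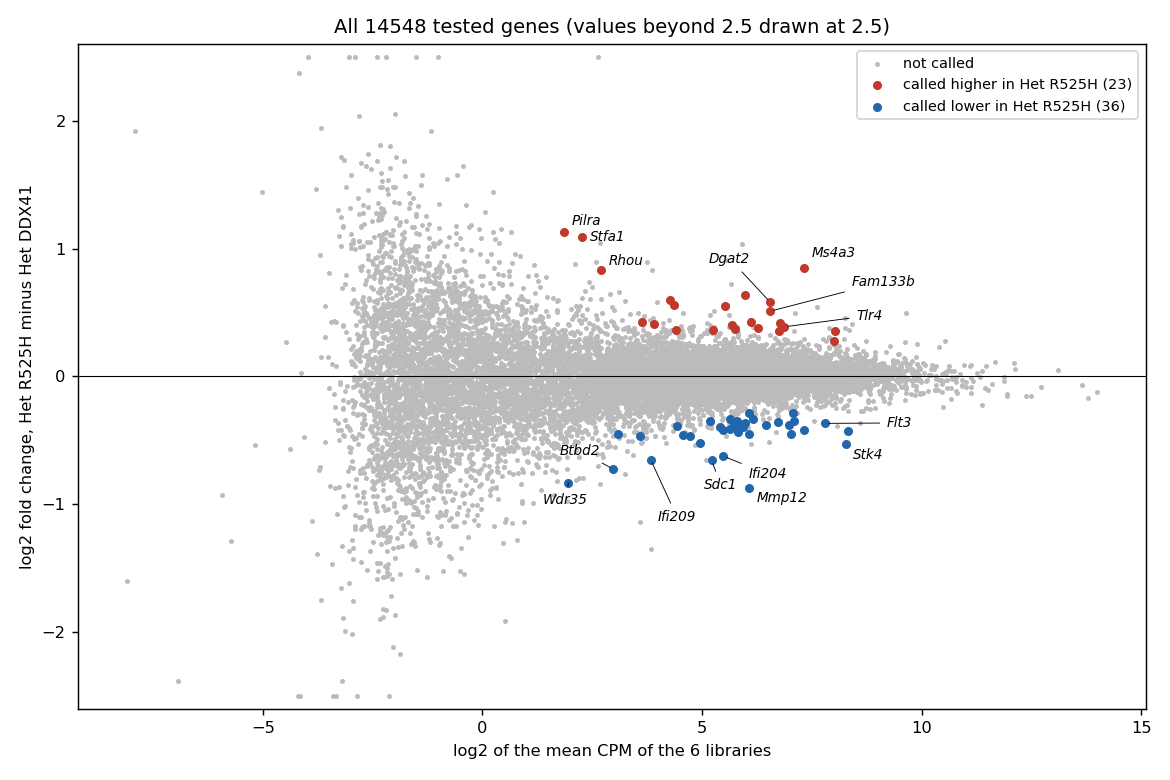
Log2 fold change of Het R525H against Het DDX41 (y axis) and log2 of the mean CPM of the 6 libraries (x axis) for the 14548 genes tested. The 23 genes called higher are red and the 36 called lower are blue; all but 2 of the 59, Pilra and Stfa1, lie within 1 of the zero line.

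Ms4a3, Tlr4 and Stfa1, all known from myeloid cells, rose in Het R525H. Ms4a3, a membrane protein made by granulocyte and monocyte precursors, had 259, 239 and 114 CPM in Het R525H, against 148, 147 and 54.2 CPM in Het DDX41. Library 3 was low in both groups, so the groups overlapped, but each Het R525H library lay above the Het DDX41 library of its number, by 0.81, 0.70 and 1.07 on the log2 scale. The log2 fold change was 0.85 (SE 0.09, adjusted p = 0.00161), and it remained called in libraries numbered 1 and 2 alone (adjusted p = 0.000343). Tlr4, the receptor for bacterial lipopolysaccharide, had 132, 130.4 and 135 CPM in Het R525H, against 103, 104 and 97.4 CPM in Het DDX41. Its libraries were tightly grouped and did not overlap (log2 fold change 0.39, SE 0.05, adjusted p = 0.00485). Stfa1, a stefin that inhibits cysteine proteases and is known from neutrophils, was at 5.07, 5.63 and 8.81 CPM in Het R525H, against 2.06, 2.48 and 4.92 CPM in Het DDX41. It has close copies in its family, between which reads may have been split. Its rise was 1.09 on the log2 scale (SE 0.18, adjusted p = 0.0169). The rise passed without Het DDX41 library 3 (adjusted p = 0.0232) but not in the other 5 fits (0.0727 to 0.162).

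The list of neutrophil genes and their precursors had 21 members tested, of which 1 rose (Ms4a3) and 0 fell. Its median log2 fold change was 0.36, beside 0.00482 over all genes, and 17 of the 21 were positive while 4 were negative. At an unadjusted p under 0.05 in the edgeR test, 8 members were higher and 1 was lower. The groups were apart for 1 member on the higher side and 0 on the lower side, against 5.16% and 5.51% of all genes tested. The median was 0.205, 0.253 and 0.349 in the pairs numbered 1, 2 and 3, and 0.256 without Het DDX41 library 3. Cebpa, the transcription factor that starts granulocyte development, was at 58.4, 62.3 and 46.1 CPM in Het R525H, against 47.8, 48.6 and 32.1 CPM in Het DDX41, a difference that missed the threshold (log2 0.39, adjusted p = 0.056). Csf3r, the receptor for granulocyte colony-stimulating factor, was at 54.2, 53.3 and 47.5 CPM in Het R525H, against 45.5, 44.8 and 39.4 CPM in Het DDX41, with every Het R525H library above every Het DDX41 library (log2 0.26, adjusted p = 0.0663). Elane, neutrophil elastase, averaged 11.5 ± 6.73 CPM in Het R525H and 7.41 ± 3.78 CPM in Het DDX41 (log2 0.59, adjusted p = 0.121). The summed level of the late neutrophil markers Ltf, Camp, Ngp and S100a9 was 8.22 to 10 TPM in Het R525H and 5.37 to 8.34 TPM in Het DDX41. Ltf went the other way, at 0.02 to 0.42 TPM in Het R525H and 0.26 to 0.87 TPM in Het DDX41. The ranges of Camp, Ngp and S100a9 lay higher in Het R525H but overlapped. In bulk RNA a larger share of such cells and more of these transcripts per cell cannot be told apart.

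Genes of monocytes and macrophages had no call among 17 tested. Their median log2 fold change was 0.141, with 12 positive and 5 negative. At an unadjusted p under 0.05 in the edgeR test, 2 were higher and 2 were lower. The groups were apart for 4 members on the higher side and 2 on the lower side, against 5.16% and 5.51% of all genes tested. Cd14, the partner of Tlr4 in binding lipopolysaccharide, had 71.2, 83.2 and 82.7 CPM in Het R525H, against 59.6, 60.1 and 54.6 CPM in Het DDX41, with the groups apart (log2 0.44, adjusted p = 0.0841). It stands for the higher side only, and the members apart on the lower side are not named here. Mmp12, the elastase of macrophages, is not in this list and was the largest called fall. It had 45, 53.6 and 44.1 CPM in Het R525H, against 75.2, 86.2 and 100.2 CPM in Het DDX41, so each Het R525H library was below each Het DDX41 library. The log2 fold change was -0.87 (SE 0.12, adjusted p = 0.00485), and the adjusted p was 0.0664 without Het R525H library 3 and at most 0.0405 in the other 5 fits. Its level was 75 ± 7.19 CPM in Het G173R, 66.4 ± 12.9 CPM in Het empty and 373 ± 40.7 CPM in WT empty. Markers of macrophages summed to 64.3 to 89.3 TPM in Het R525H and 60.8 to 85.2 TPM in Het DDX41, with C1qa at 0 in all 6 libraries.

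**Figure D2:**
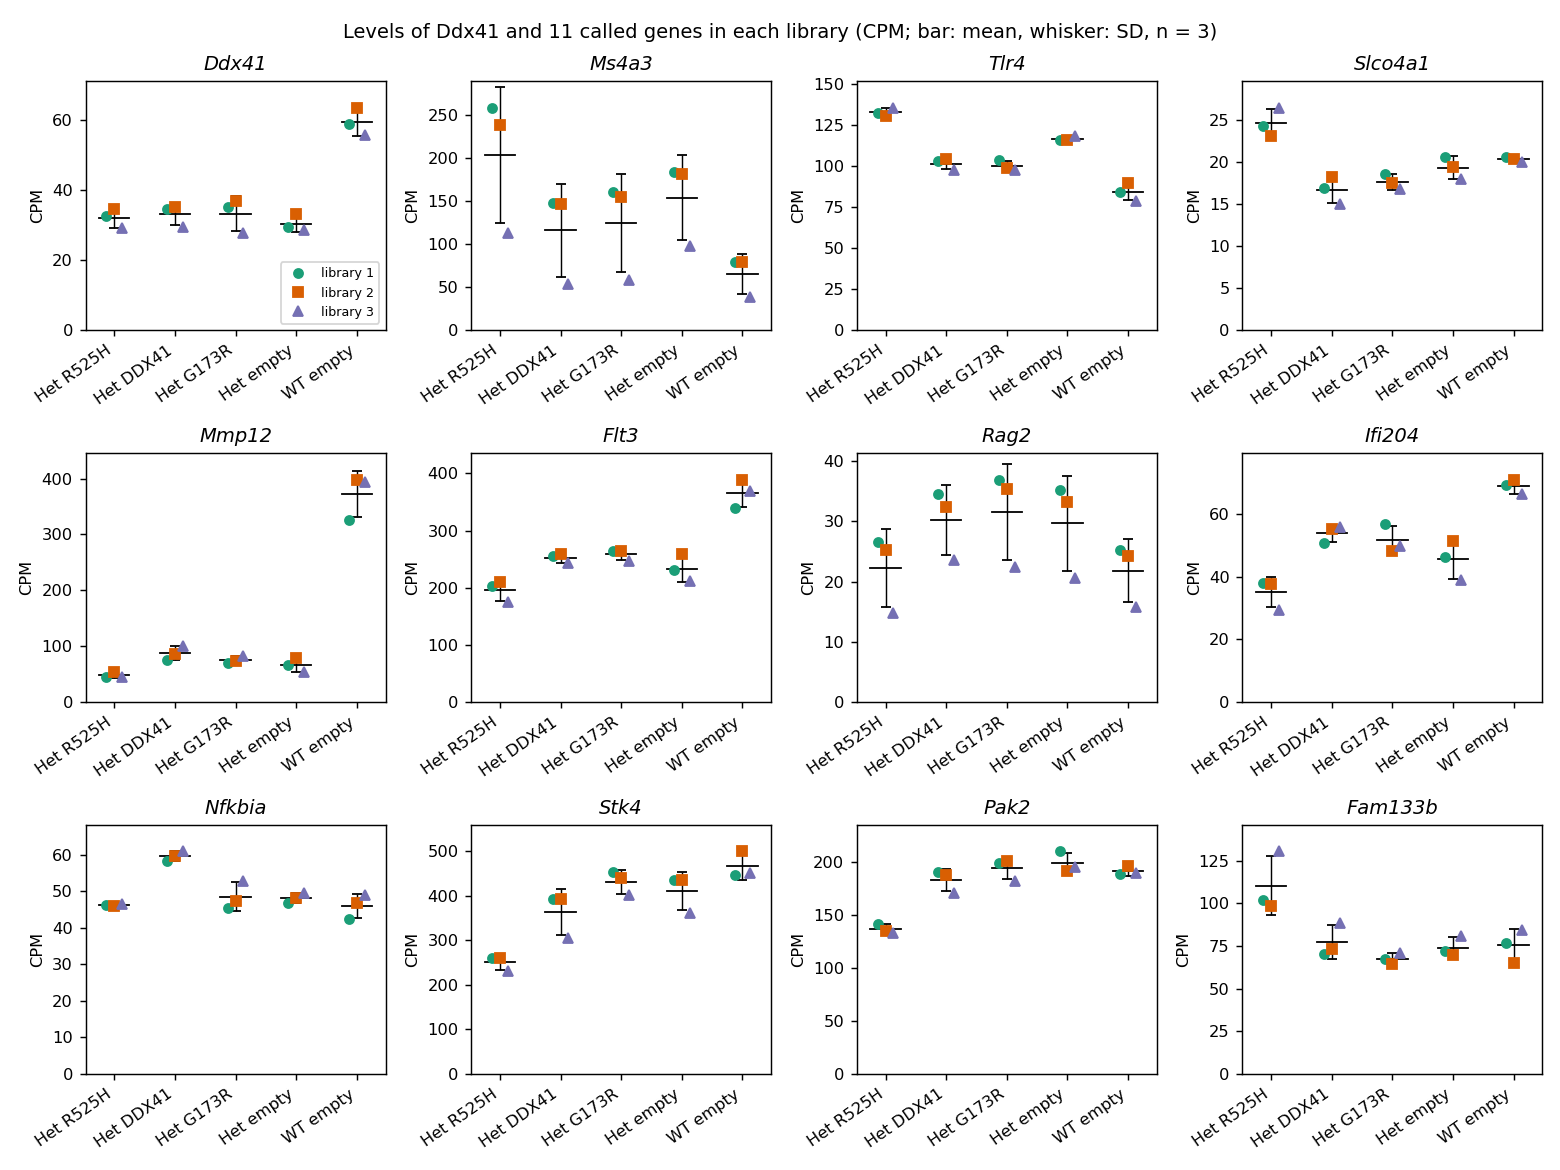
CPM of Ddx41 and 11 called genes (y axes, from 0) in the 3 libraries of each group, with library numbers 1, 2 and 3 as circle, square and triangle, the mean as a bar and the SD as a whisker (n = 3). Ms4a3 and Rag2 show library 3 low in every group, while Tlr4, Pak2 and Nfkbia show Het R525H apart from Het DDX41 in all 3 libraries; for Nfkbia, Het R525H is near Het G173R, Het empty and WT empty.

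Other genes rose beside these; Dgat2, Mtus1, Igsf6, Olr1, Anxa3, Pilra and Slc8b1 lie outside the naming rule and were picked with their values in view. Dgat2, which makes triglycerides, had the smallest p of all genes: 136, 138 and 61.9 CPM in Het R525H, against 92.2, 96 and 39.3 CPM in Het DDX41 (log2 fold change 0.58, SE 0.05, adjusted p = 0.000551). As with Ms4a3, library 3 was the lowest in both groups and the groups overlapped, but the difference had the same sign within each number. Mtus1, a microtubule-associated protein, averaged 76.6 ± 33.7 CPM in Het R525H and 49.9 ± 23.5 CPM in Het DDX41 and rose by 0.64 on the log2 scale (adjusted p = 0.00369). Igsf6, Olr1 and Anxa3 rose by 0.55, 0.43 and 0.42 (adjusted p = 0.0282, 0.0326 and 0.0238), but none of these 3 passed when any library was left out (adjusted p from 0.0544 to 0.185). The same holds for Pilra, a paired receptor of myeloid cells whose locus has related copies. It had the largest rise of all (1.13, SE 0.20, adjusted p = 0.0258) at a low level of 5.75, 4.76 and 4.4 CPM in Het R525H, against 2.31, 2.46 and 2.01 CPM in Het DDX41. Slc8b1, the mitochondrial exchanger of sodium and calcium, rose by 0.60 (adjusted p = 0.0103, and 0.0274 to 0.0865 with a library left out). Slco4a1, a transporter of organic anions, had 24.3, 23 and 26.4 CPM in Het R525H, against 16.8, 18.2 and 15 CPM in Het DDX41, with no overlap (log2 fold change 0.56, adjusted p = 0.00916, and 0.0193 to 0.0985 with a library left out).

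Flt3 and Rag2, genes of early and lymphoid progenitors, fell in Het R525H. Flt3, the receptor tyrosine kinase of early multipotent and lymphoid progenitors, had 202, 211 and 175 CPM in Het R525H, against 255, 259 and 242 CPM in Het DDX41. Each Het R525H library lay below each Het DDX41 library (log2 fold change -0.37, SE 0.06, adjusted p = 0.0205). It passed in none of the 6 fits that left out a library (adjusted p of 0.0576 to 0.149). Rag2, which with Rag1 forms the recombinase that assembles antigen receptor genes, had 26.5, 25.3 and 14.8 CPM in Het R525H, against 34.6, 32.5 and 23.6 CPM in Het DDX41. Library 3 was again the lowest of each group, and the log2 fold change was -0.46 (SE 0.07, adjusted p = 0.00713; 0.0664 without Het R525H library 3 and 0.0274 to 0.0455 in the other 5 fits). Its partner Rag1 was low, at 3.82, 2.7 and 3.4 CPM in Het R525H, against 5.29, 4.78 and 7.47 CPM in Het DDX41, and with the groups apart its difference of -0.79 on the log2 scale missed the threshold (adjusted p = 0.0826).

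Of 12 early lymphoid genes tested, 1 fell (Rag2) and 0 rose; 10 were negative and the median was -0.271. The pair medians were -0.107, -0.185 and -0.511 for numbers 1, 2 and 3, so that the list's median came mostly from the pair numbered 3, and with libraries numbered 1 and 2 alone it was -0.139. B cell markers summed to 7.9 to 8.43 TPM in Het R525H and 8.54 to 11.3 TPM in Het DDX41, carried almost wholly by Ebf1, a transcription factor of the B cell lineage. Of 18 stem and progenitor genes, 1 fell (Flt3) and 0 rose, with a median of -0.0402. Kit and Cd34 were not called, with log2 fold changes of -0.09 each. Erythroid and megakaryocyte genes had no call among 10 tested in each list, and medians of -0.297 and -0.245. The erythroid markers summed to 1.08 to 1.79 TPM in Het R525H and 1.83 to 3.09 TPM in Het DDX41, with Hba-a1 at 0 throughout. The part of such minor cells in the results above was not tested.

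The plot of the gene lists puts these medians side by side. Of the 33 lists, 6 had a called member, and each of those had 1. Only 0.406% of all genes tested were called, so lists of this size hold few calls or none. A list without a call therefore does not show that its genes were unchanged. The median stayed within 1.5 times its value under every alternative for 2 of the 33, the neutrophil list and the list of monocytes and macrophages. In the latter, the pair medians were 0.186, 0.166 and 0.0316 for numbers 1, 2 and 3, so the pair numbered 3 hardly differed. A median near 0 can hardly meet such a ratio, so missing it says little about those lists. The medians of the other lists are descriptions that shift with the libraries.

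**Figure D3:**
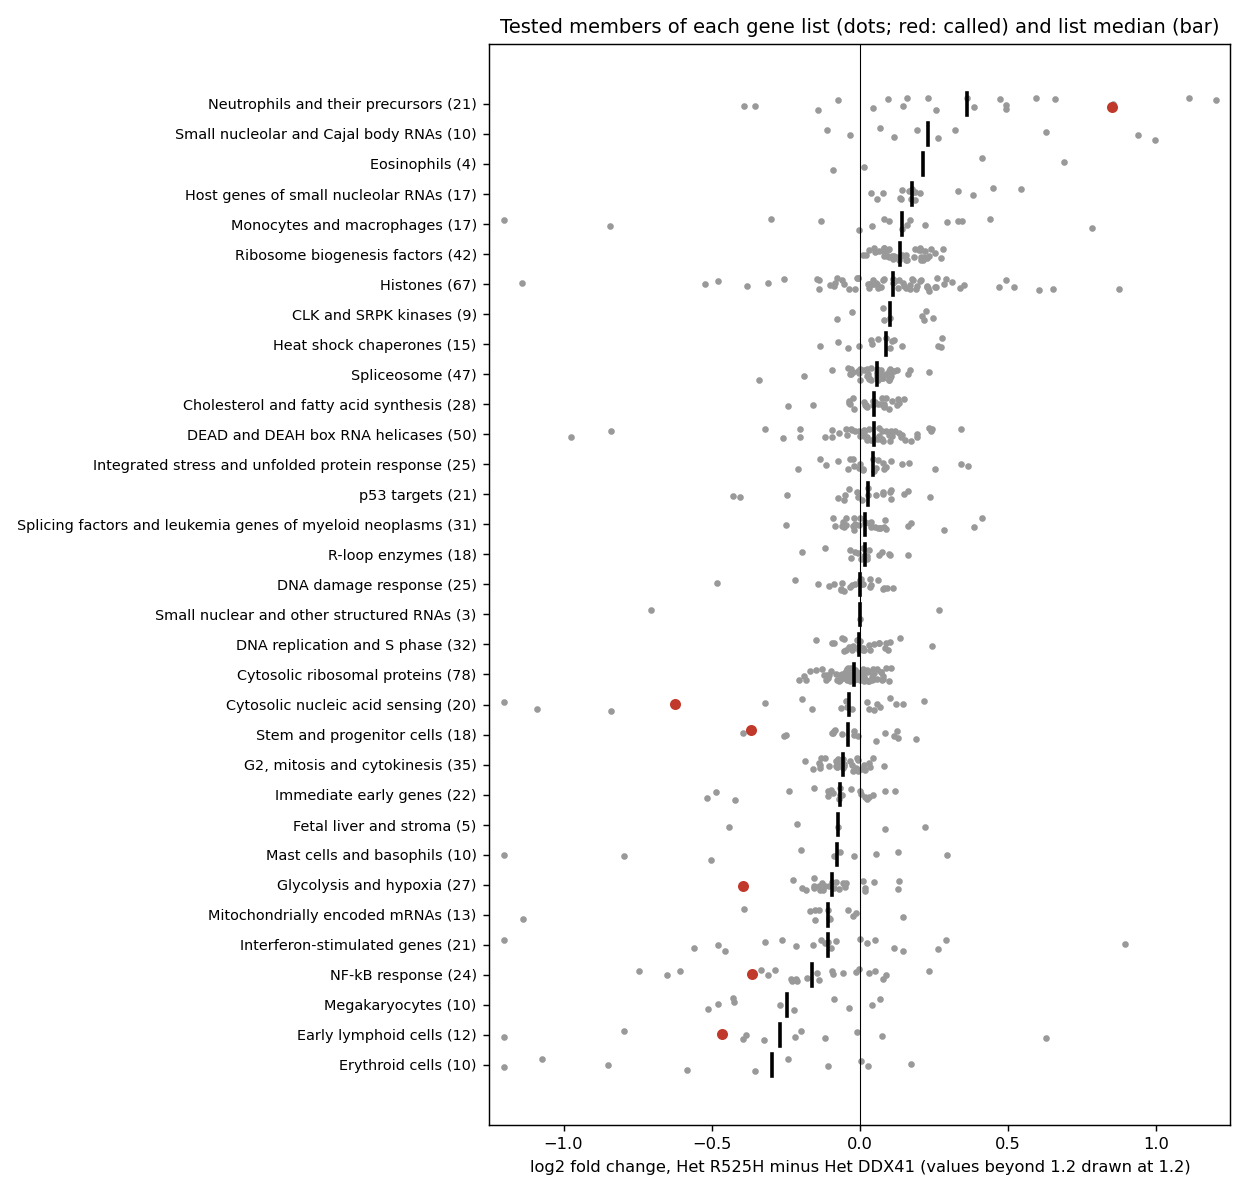
Log2 fold change of Het R525H against Het DDX41 (x axis) for the tested members of 33 gene lists (y axis, number tested in parentheses), ordered by the list median (bar). Called members are red: Ms4a3 on the positive side, and Ifi204, Flt3, Pfkm, Nfkbia and Rag2 on the negative side.

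Ifi204 and Ifi209, members of the interferon-inducible p200 family, fell in Het R525H. Proteins of this family bind DNA in the nucleus and cytosol, and DDX41 has been placed in the same sensing pathway. Ifi204 had 38.1, 37.7 and 29.6 CPM in Het R525H, against 50.8, 55.3 and 55.8 CPM in Het DDX41, and Ifi209 had 13.4, 11.1 and 8.76 CPM in Het R525H, against 18.2, 18.4 and 15.3 CPM in Het DDX41. For both, every Het R525H library was below every Het DDX41 library. Ifi204 had a log2 fold change of -0.62 (SE 0.09, adjusted p = 0.00894) and adjusted p of 0.0208 to 0.0865 with a library left out, over 0.05 without Het R525H library 3, Het DDX41 library 2 or Het DDX41 library 3. Ifi209 had a log2 fold change of -0.65 (SE 0.09, adjusted p = 0.00468, and 0.0587 with libraries numbered 1 and 2 alone). Mndal and Ifi203, their neighbours on chromosome 1, were below 2 CPM in all 6 libraries. Mndal had 0.292, 0.3 and 0.409 CPM in Het R525H, against 0.708, 0.658 and 0.734 CPM in Het DDX41, and Ifi203 had 0.292, 0.551 and 0.227 CPM in Het R525H, against 0.729, 0.614 and 1.85 CPM in Het DDX41; neither was called (log2 -1.09 and -1.34, adjusted p = 0.165 for each). The annotation places Ifi209, Ifi208, Ifi207, Ifi204, Mndal, Ifi211 and Ifi203 in this order along chromosome 1, and their sequences are alike enough that reads may have been assigned to the wrong member, so the calls are uncertain as to which of them changed.

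Of 20 genes of cytosolic nucleic acid sensing, 1 fell (Ifi204) and 0 rose, and the median was -0.0355. Cgas, the DNA sensor that makes cyclic GMP-AMP, was not called (log2 0.21, adjusted p = 0.368), and Dhx58, a helicase of the RNA sensing pathway, was at 0.875, 1.23 and 1.82 CPM in Het R525H, against 1.94, 1.62 and 3.53 CPM in Het DDX41 (log2 -0.84, adjusted p = 0.213). None of 21 interferon-stimulated genes was called, and the median was -0.107, with 7 positive and 14 negative. Of the 21, 2 were higher and 2 were lower at an unadjusted p under 0.05 in the edgeR test. Cxcl10, a chemokine induced by interferon, was on the higher side at 14.6, 16.7 and 21.6 CPM in Het R525H, against 10.8, 9.87 and 6.58 CPM in Het DDX41, with the groups apart (log2 0.89, adjusted p = 0.159). The promoters of Ifi209 and Mndal are shown because these 2 members of the family have an entry in the promoter table used (RefSeq, GRCm38.p6). Capitals mark AANNGAAA, a core that interferon regulatory factors can bind, searched on both strands in the 250 bases before the start; 21.3% of 32851 promoters hold it.
Ifi209, chr1:173630609-173630858, plus strand: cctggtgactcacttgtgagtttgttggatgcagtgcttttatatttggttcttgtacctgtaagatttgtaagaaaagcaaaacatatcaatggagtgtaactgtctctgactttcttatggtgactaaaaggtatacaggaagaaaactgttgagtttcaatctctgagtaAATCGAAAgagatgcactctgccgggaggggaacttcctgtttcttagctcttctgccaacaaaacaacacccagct
Mndal, chr1:173880188-173880437, minus strand: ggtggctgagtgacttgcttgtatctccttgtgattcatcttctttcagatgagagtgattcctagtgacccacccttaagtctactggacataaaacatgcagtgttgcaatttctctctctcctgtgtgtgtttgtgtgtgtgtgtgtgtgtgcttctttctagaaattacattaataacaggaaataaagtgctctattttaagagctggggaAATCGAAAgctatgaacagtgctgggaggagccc
Each has 1 match, with the same letters, 77 bases before the start of Ifi209 and 34 bases before that of Mndal.

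Nfkbia fell in Het R525H and was near its level with the empty vector. It encodes IκBα, which holds NF-κB in the cytosol and is itself induced by NF-κB. Nfkbia had 46.3, 46.1 and 46.4 CPM in Het R525H, against 58.2, 59.7 and 61 CPM in Het DDX41. The Het R525H libraries lay within 1 CPM of each other, and each was below each Het DDX41 library (log2 fold change -0.36, SE 0.06, adjusted p = 0.0103). The adjusted p with a library left out was 0.0312 to 0.0998, under 0.05 only without Het R525H library 1. In the other groups the level was 48.6 ± 3.93 CPM in Het G173R, 48.2 ± 1.39 CPM in Het empty and 46 ± 3.35 CPM in WT empty. Het R525H differed little from Het empty (log2 difference -0.06, adjusted p = 0.765), and Het DDX41 was the highest of the 5 groups, although its own difference from Het empty missed the threshold (log2 0.31, adjusted p = 0.367). These contrasts share libraries and are not independent.

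Of 24 genes of the NF-κB response, 1 fell (Nfkbia), 0 rose and 19 were negative, with a median of -0.162. The pair medians were -0.102, -0.108 and -0.191, and the median was -0.0915 without Het DDX41 library 3. Cxcl2, a chemokine that attracts neutrophils, was at 17.9, 17.6 and 44.7 CPM in Het R525H, against 28.6, 28.3 and 67 CPM in Het DDX41; library 3 was the highest of both groups (log2 -0.65, adjusted p = 0.0868). Birc3, an inhibitor of apoptosis, was at 33.7, 33.6 and 33.9 CPM in Het R525H, against 39.8, 41 and 38.2 CPM in Het DDX41, with the groups apart (log2 -0.23, adjusted p = 0.223). The promoter of Nfkbia is shown with matches to GGNNNTTCC, a core of the NF-κB site, in capitals (RefSeq, GRCm38.p6, 250 bases before the start, both strands searched).
Nfkbia, chr12:55492648-55492897, minus strand: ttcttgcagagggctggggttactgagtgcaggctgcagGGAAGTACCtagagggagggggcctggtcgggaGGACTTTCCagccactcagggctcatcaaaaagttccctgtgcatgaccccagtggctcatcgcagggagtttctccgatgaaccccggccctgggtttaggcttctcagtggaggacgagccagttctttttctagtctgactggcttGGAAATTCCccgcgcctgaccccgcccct
It holds 3 matches, 211, 178 and 29 bases before the start. The motif occurs in 15.7% of 32851 promoters, and 1.46% hold at least 2 matches. A promoter entry was found for 45 of the 59 called genes. Of those, 16 held this motif and 10 held the AANNGAAA core in at least 1 entry. These are counts of genes, which may have several entries, while the shares of all promoters are of single entries. The counts therefore cannot be set against those shares, and they were not tested.

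Sdc1, Stk4, Ptprs and Pak2 had the smallest p among the genes that fell, and all 4 kept the call whichever library was left out. Stk4, the Hippo pathway kinase also known as MST1, had 261, 261 and 230.2 CPM in Het R525H, against 394, 393 and 305 CPM in Het DDX41 (log2 fold change -0.53, SE 0.06, adjusted p = 0.00243). Pak2, a kinase activated by Rac and Cdc42, had 141, 135 and 133 CPM in Het R525H, against 190.2, 188 and 170.5 CPM in Het DDX41 (log2 fold change -0.42, SE 0.05, adjusted p = 0.00255). Ptprs, a receptor tyrosine phosphatase, had 98, 112 and 121 CPM in Het R525H, against 144, 142 and 165 CPM in Het DDX41 (log2 fold change -0.45, SE 0.05, adjusted p = 0.00243). The groups did not overlap for any of the 3. For all 3, Het R525H was also the lowest of the heterozygous groups: Stk4 averaged 251 CPM in Het R525H, 431 CPM in Het G173R, 410.4 CPM in Het empty and 364 CPM in Het DDX41. The log2 difference of Het R525H from Het empty was -0.71 for Stk4, -0.54 for Pak2 and -0.61 for Ptprs (adjusted p = 0.000177, 0.000244 and 0.000177). Sdc1, a heparan sulfate proteoglycan of the cell surface, had 28.8, 29.6 and 27.8 CPM in Het R525H, against 42.8, 43.6 and 50.3 CPM in Het DDX41 (log2 fold change -0.66, SE 0.07, adjusted p = 0.00161), and it too was lower than in Het empty (-0.53, adjusted p = 0.00396).

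Plxnb2 and Col4a5 also fell. Plxnb2, a receptor for semaphorins, had 49.7, 53.6 and 62.1 CPM in Het R525H, against 65.8, 67.3 and 79.9 CPM in Het DDX41 (log2 fold change -0.37, adjusted p = 0.0149, and 0.058 to 0.149 with a library left out). Col4a5, a chain of basement membrane collagen, had 249, 249 and 327 CPM in Het R525H, against 339, 337 and 429 CPM in Het DDX41 (log2 fold change -0.42, adjusted p = 0.0435, and 0.0896 to 0.272 with a library left out). Both were higher in library 3 than in libraries 1 and 2 of their group, and for both the groups stayed apart. Tpm4, Capn2, Coro1b and Anxa6, named after their values were seen, encode a tropomyosin, a calpain, a coronin and an annexin. They fell by 0.38, 0.46, 0.28 and 0.35 on the log2 scale (adjusted p = 0.0326, 0.0418, 0.0424 and 0.0398); none passed with any library left out (adjusted p from 0.0673 to 0.272).

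**Figure D4:**
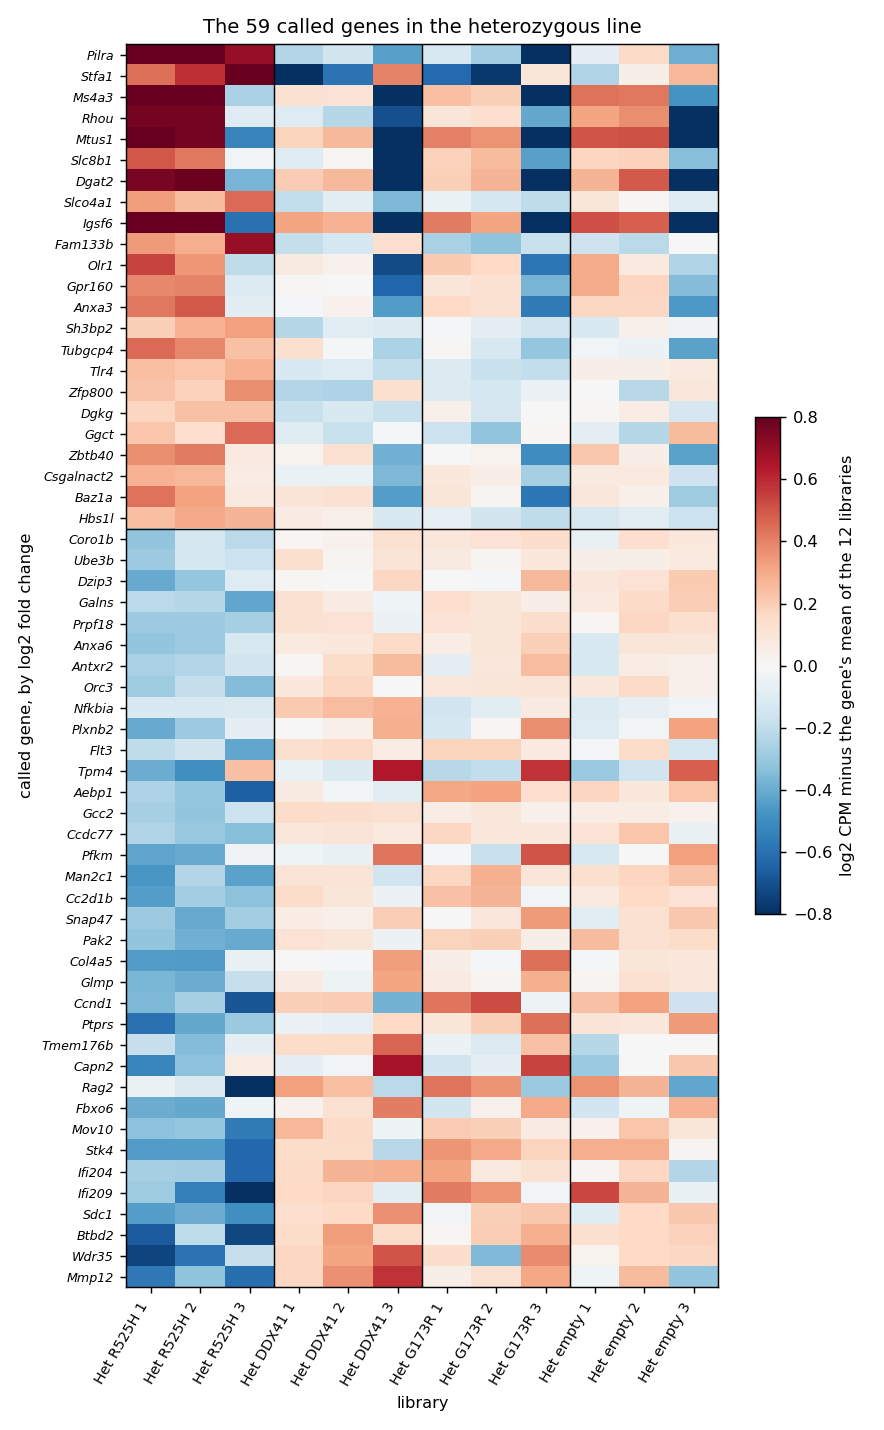
Log2 CPM of the 59 called genes (rows, ordered by log2 fold change) in the 12 libraries of the heterozygous line (columns), each minus the gene's mean of the 12 (colours stop at 0.8 either way). The Het R525H columns are red above the horizontal line and blue below it, with exceptions in library 3 such as Ms4a3 and Tpm4, and library 3 of the other groups departs from libraries 1 and 2 in rows such as Mtus1 and Capn2.

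The called genes described next are in none of the 33 lists. Mov10, an RNA helicase that acts with the RNA silencing machinery, had 26.6, 27 and 22.7 CPM in Het R525H, against 40.2, 37.2 and 32.5 CPM in Het DDX41, with the groups apart (log2 fold change -0.52, SE 0.08, adjusted p = 0.0063, and 0.0155 to 0.0664 with a library left out). Hbs1l, which with pelota frees stalled ribosomes, had 275, 287 and 280.5 CPM in Het R525H, against 244, 239 and 214 CPM in Het DDX41, the smallest change of all 59 (log2 fold change 0.27, SE 0.05, adjusted p = 0.0402, and 0.0792 to 0.203 with a library left out). Prpf18, a factor of the later catalytic step of splicing, was chosen after its values were seen; it had 48.8, 48.9 and 49.8 CPM in Het R525H, against 65, 64.8 and 57.8 CPM in Het DDX41 (log2 fold change -0.35, adjusted p = 0.031, and 0.0415 to 0.204 with a library left out). Fam133b had 102, 98.7 and 130.5 CPM in Het R525H, against 70.5, 73 and 88.4 CPM in Het DDX41 and was higher in Het R525H than in any other group, at a mean of 110.4 CPM against 67.6 CPM in Het G173R, 74 CPM in Het empty, 75.4 CPM in WT empty and 77.3 CPM in Het DDX41 (log2 fold change against Het DDX41 0.51, adjusted p = 0.00342). Orc3, a subunit of the origin recognition complex, had 91.5, 97.9 and 87.5 CPM in Het R525H, against 118, 125 and 112 CPM in Het DDX41 (log2 fold change -0.36, adjusted p = 0.00661, and 0.0308 to 0.0697 with a library left out). Tubgcp4, part of the complex that nucleates microtubules, had 62.1, 59.3 and 53.2 CPM in Het R525H, against 49.5, 44.7 and 38 CPM in Het DDX41 (log2 fold change 0.41, adjusted p = 0.0063, and 0.0285 to 0.0604 with a library left out). For Orc3 and Tubgcp4, too, the 3 libraries of Het R525H lay apart from those of Het DDX41.

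The list of spliceosome genes had no call among 47 tested; Prpf18 is not on that list. The median was 0.0586, and 37 were positive, but with libraries numbered 1 and 2 alone the median was 0.016 and 29 were positive. Of 50 DEAD-box and DEAH-box helicases none was called. Ddx5, one of the most abundant, was at 1079.5, 1074 and 1074 CPM in Het R525H, against 1169, 1162 and 1168 CPM in Het DDX41, a narrow gap with no overlap that missed the threshold (log2 -0.12, adjusted p = 0.394). None of 31 splicing factors and leukemia genes of myeloid neoplasms, 25 genes of the DNA damage response, 21 p53 targets, 18 genes of R-loop enzymes or 32 genes of DNA replication was called, with medians between -0.00278 and 0.0282. With 0.406% of all genes tested called, the lack of calls in these lists does not show that their genes were unchanged.

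None of the ribosome biogenesis factors was called, but all 42 tested had a positive log2 fold change, with a median of 0.136. The pair medians were 0.0412, 0.0427 and 0.321 for numbers 1, 2 and 3, so that the pair numbered 3 carried most of the difference. Without Het DDX41 library 3 the median was 0.0636, and with libraries numbered 1 and 2 alone it was 0.0491, with 34 positive. Polr1b, a subunit of RNA polymerase I, shows this: it had 136, 145 and 122 CPM in Het R525H, against 119.7, 131 and 86.1 CPM in Het DDX41 (log2 0.27, adjusted p = 0.328). The host genes of small nucleolar RNAs were all positive too (17 of 17, median 0.175), with pair medians of 0.193, 0.106 and 0.208. With a library left out, 15 to 17 of the 17 were positive, and the median was 0.112 without Het R525H library 3, 0.113 without Het DDX41 library 1 and 0.141 to 0.238 in the other 4 fits. Snhg1 had 334, 343 and 355 CPM in Het R525H, against 251, 279 and 262 CPM in Het DDX41, with the groups apart, and missed the threshold (log2 0.38, adjusted p = 0.121). The 78 cytosolic ribosomal protein genes had a median of -0.0202 and no call; many have processed copies, between which reads may have been split.

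Among the metabolic lists, Pfkm was the called gene. Of 27 genes of glycolysis and the hypoxia response, 1 fell and 21 were negative, with a median of -0.0943. Pfkm, a phosphofructokinase that commits sugar to glycolysis, had 47.8, 48.3 and 62.8 CPM in Het R525H, against 62.5, 61.4 and 86 CPM in Het DDX41; library 3 was the highest in both groups, and the groups overlapped (log2 fold change -0.39, SE 0.08, adjusted p = 0.0435, and 0.0956 to 0.24 with a library left out). Pkm, pyruvate kinase, averaged 2461 ± 523 CPM in Het R525H and 2873 ± 562 CPM in Het DDX41 (log2 -0.23, adjusted p = 0.249). Of 13 mitochondrially encoded transcripts none was called and 12 were negative, with a median of -0.107; without Het DDX41 library 3 the median was 0.0318 and 8 were positive. No gene was called among 28 of cholesterol and fatty acid synthesis, 15 heat shock chaperones or 25 of the integrated stress and unfolded protein responses. Genes of mitosis had no call among 35 and a median of -0.0567, with 28 negative; the median was -0.0256 without Het R525H library 3, -0.0359 without Het DDX41 library 3 and -0.0284 with libraries numbered 1 and 2 alone.

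The other groups place these values. Het R525H against Het G173R gave 141 calls (0.969% of the genes tested) and Het R525H against Het empty gave 63 (0.433%). Het DDX41 against Het empty gave 0 calls, and Het G173R against Het DDX41 gave 1. By these calls Het DDX41 was not told apart from the empty vector, which does not show that the groups are the same. These contrasts share libraries with each other and with the 59 calls, so they are not independent, and the differences between the counts were not tested. Dgat2 was higher in Het R525H by 0.55 than in Het G173R and by 0.43 than in Het empty on the log2 scale (adjusted p = 0.000197 and 0.00197). Fam133b was higher by 0.70 and 0.57 (adjusted p = 0.00015 and 0.000868). Ms4a3 and Tlr4 were higher than in Het G173R (0.75 and 0.41, adjusted p = 0.00136 and 0.00176) but not called against Het empty (0.37 and 0.19, adjusted p = 0.131 and 0.176). Against WT empty, Het R525H had 2522 calls (17.3%) and Het DDX41 had 1887 (13%), which include whatever else separates the lines. Mmp12, Flt3 and Ifi209 were below WT empty in both vector groups and lowest in Het R525H. Ifi209 averaged 11.1 ± 2.31 CPM in Het R525H, 17.3 ± 1.72 CPM in Het DDX41 and 47.8 ± 7.32 CPM in WT empty. Rag2 and Sdc1 went the other way between the lines, with 22.2 and 28.7 CPM in Het R525H, 30.2 and 45.6 CPM in Het DDX41, and 21.8 and 22.6 CPM in WT empty, so Het R525H was the closer to WT empty.

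Further genes named by the rule changed as follows. Among those that rose, Rhou had 9.86, 9.86 and 5.4 CPM in Het R525H, against 5.4, 4.96 and 3.56 CPM in Het DDX41 (log2 fold change 0.83, adjusted p = 0.031, and 0.0708 to 0.185 with a library left out). Csgalnact2, which builds chondroitin sulfate chains, had 128, 127 and 109.9 CPM in Het R525H, against 102, 102 and 81.9 CPM in Het DDX41 (log2 fold change 0.36, adjusted p = 0.0044). Sh3bp2, an adaptor of immune receptor signalling, Dgkg, a diacylglycerol kinase, Ggct, an enzyme of glutathione breakdown, and the zinc finger gene Zfp800 rose by 0.41, 0.37, 0.37 and 0.38 on the log2 scale (adjusted p = 0.0499, 0.0238, 0.0423 and 0.0424). Of these 4, Zfp800 passed without Het DDX41 library 3 (adjusted p = 0.0232), not in the other 5 fits (0.133 to 0.239), and Sh3bp2, Dgkg and Ggct passed in none of the 6 (adjusted p of 0.133 to 0.254, 0.0665 to 0.185 and 0.0811 to 0.24). Among those that fell, Btbd2 had 5.34, 7.36 and 5.13 CPM in Het R525H, against 9.4, 10.7 and 9.4 CPM in Het DDX41 (log2 fold change -0.73, adjusted p = 0.0138, and 0.024 to 0.121 with a library left out). Gcc2, a golgin of the trans-Golgi, had 46, 44.6 and 49.2 CPM in Het R525H, against 61.3, 61.2 and 60.3 CPM in Het DDX41, with the groups apart (log2 fold change -0.39, adjusted p = 0.0092, and 0.016 to 0.0845 with a library left out). Cc2d1b, which binds the ESCRT machinery, Glmp, a lysosomal membrane protein, Fbxo6, a ubiquitin ligase adaptor for glycoproteins, and Tmem176b, a membrane protein of myeloid cells, fell by 0.41, 0.43, 0.47 and 0.45 (adjusted p = 0.0169, 0.0329, 0.0229 and 0.0418). With a library left out, the adjusted p was 0.0415 to 0.162 for Cc2d1b, 0.0313 to 0.24 for Glmp, 0.0727 to 0.162 for Fbxo6 and 0.0356 to 0.24 for Tmem176b.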

How the data were processed

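Per the labels' protocols, column-purified total RNA was depleted of ribosomal RNA and made into stranded libraries. The authors deposited 1 table per library with 55359 genes, made with RSEM per the submitters' processing notes; the sources used here do not give its version, the aligner or the genome build. Expected counts, estimates in which reads that match several genes are shared among them, were deposited without normalization per the file headers. TPM values, which the authors had normalized for length and depth, were used only for cell type markers, and FPKM was not used.

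Expected counts were rounded, and edgeR 4.0.16 (R 4.3.3) was used for the test. The 14548 genes passing filterByExpr held 99.95 to 99.97% of the counts, and libraries were scaled by TMM (0.977 to 1 in the 6 compared). All 15 libraries entered one quasi-likelihood model with group and replicate number as terms, because the 6 alone leave little information on the spread. Het R525H minus Het DDX41 was a contrast of it, with Benjamini-Hochberg adjustment over all genes tested and a threshold of 0.05. Each SE is the size of a log2 fold change divided by the root of its F statistic. CPM are on TMM-scaled totals. The replicate numbers come from the titles, and the comparison was set with them as a block. All 3 correlations of deviations between same-numbered libraries were above 0.1 (0.321 to 0.635). Differently numbered libraries 1 and 2 were above it too (0.259 and 0.308), so this bar does not show that those libraries are paired by number. In 1 simulated data set the share of false calls was above the threshold.

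Genes were named by a rule: Ddx41; called genes of at least 5 CPM in the higher group with the groups apart, the 12 largest rises, the 12 largest falls and the 6 smallest p of the rest; and up to 4 members of each list with a call, or 2 of each list without one. The comparison, the 33 gene lists and the rule were chosen with earlier results of these data known. Lists are described by counts and medians, with no test. Alternatives were other scaling (RLE, totals only), filters, models, tools (DESeq2 1.42.0, limma 3.58.1 voom) and leaving out each library. Promoters came from a RefSeq table of GRCm38.p6, matched by symbol.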

Additional observations from a re-analysis of the deposited data

How the results depend on the processing

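All 59 genes kept their sign under every alternative run, also in the models that called 0 genes. The alternatives reuse the libraries on which the genes were selected, so kept signs are not separate evidence. RLE scaling gave 59 calls and totals without composition factors gave 66, of which 59 and 57 were among the 59. Models without the replicate block gave 0 calls, 0 higher and 0 lower, with all 15 libraries (581 genes at an unadjusted p under 0.05) and with the 6 compared (501 genes). With the replicate block, fitting the 6 libraries alone gave 145 calls (65 higher, 80 lower), the 12 heterozygous libraries gave 119 (55 higher, 64 lower), and libraries numbered 1 and 2 gave 38 (20 higher, 18 lower), of which 26 were among the 59. No filter on low counts gave 150 calls (56 higher, 94 lower), a minimum mean of 1 CPM gave 87 (31 higher, 56 lower), DESeq2 gave 240 (96 higher, 144 lower) and voom gave 76 (36 higher, 40 lower). Leaving out 1 library gave 13 to 23 calls, 6 to 9 higher and 7 to 14 lower; the count was lowest without Het R525H library 3, the shallowest library. The cause of these shifts in count was not tested. No called gene was below 4.95 CPM in the group where it was higher. Whether depth limited the calls at low level was not tested. Of the 34 called genes named by the rule, none changed sign.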
